A study of Mus musculus with 9 samples.

Results

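The 9 genes followed here accompany the commitment of cortical progenitors to neurogenesis. They are Neurog1, Neurog2, Neurod1, Neurod4, Eomes, Insm1, Gadd45g, Mfng and Sstr2, taken from a list of commitment genes and matched by symbol to the identifiers of a counts table, where all 9 were found among 57010 genes. RNA was sequenced from the microdissected cortex of 9 single mouse embryos at E12.5, with 3 embryos for each of 3 genotypes. Control embryos (Ctrl) carry the genotype WT in the labels, which do not say whether they had Cre or floxed alleles. Cnot3 cKO embryos were Emx1-Cre;Cnot3 lox/lox so that Cre deletes Cnot3, which encodes a subunit of the CCR4-NOT complex that shortens poly(A) tails. Cnot3;Trp53 dcKO embryos carried Trp53 lox/lox beside Cnot3 lox/lox, with the same Emx1-Cre, which then deletes the p53 gene as well. Emx1-Cre acts in radial glia of the dorsal telencephalon and in their descendants, so vessels, blood and meninges in the dissected piece kept their alleles.

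Radial glial cells give rise to cortical neurons directly or through intermediate progenitors. Proneural bHLH factors such as NEUROG1 and NEUROG2 pair with E proteins, bind E-box sequences and switch on Notch ligands, the later NEUROD factors and the T-box factor EOMES (TBR2), which defines intermediate progenitors. Notch signaling between neighboring cells holds these factors back through HES repressors, and fringe enzymes such as MFNG add sugars to Notch and alter which ligands it answers. INSM1 is a zinc finger factor needed to make basal progenitors, GADD45G is a small stress-inducible protein that marks newly committed cells, and SSTR2 is a receptor for somatostatin found on intermediate progenitors and young neurons.

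The targeted genes were checked first, in CPM, the number of reads of a gene scaled to a common library size. Cnot3 ranged from 98.2 to 117.3 CPM in Ctrl and from 14.6 to 17.3 CPM in cKO. In dcKO replicates 1, 2 and 3 it was 7.33, 48.2 and 19.0 CPM. Trp53 ranged from 215 to 254 CPM in Ctrl and from 164 to 167 CPM in cKO, and was 15.1, 110 and 20.6 CPM in dcKO replicates 1, 2 and 3. The library labelled dcKO replicate 2 thus kept more of both targeted transcripts than the other dcKO embryos, and the dcKO fold change of each member is given with and without it. Between 21193798 and 45073349 reads were counted per embryo, and the deepest library was dcKO replicate 2. Of the markers of dorsal telencephalon, Pax6 ranged from 118.8 to 157 CPM, Tbr1 from 116.2 to 217 CPM and Emx1 from 7.94 to 120 CPM over the 9 embryos.

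All 9 genes had more than 10 reads in every embryo and entered the test with 13680 genes in all. Per kilobase of annotated exon, the scale on which genes can be compared, Neurog2 had the highest level in Ctrl with 70.5 ± 12.8 CPM per kb (SD, n = 3). Eomes followed with 38.0 ± 2.48 CPM per kb and Mfng with 29.1 ± 5.02 CPM per kb. Sstr2 had 19.9 ± 3.28, Gadd45g 12.1 ± 7.99, Neurod1 10.6 ± 3.51 and Insm1 9.27 ± 1.46 CPM per kb, and each of these 4 genes overlapped its neighbor in this order across the Ctrl embryos. Neurog1 had 6.78 ± 0.33 CPM per kb and Neurod4, the least abundant, 0.853 ± 0.26 CPM per kb. All further levels are CPM per gene, which compare embryos and not genes.

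**Figure D1:**
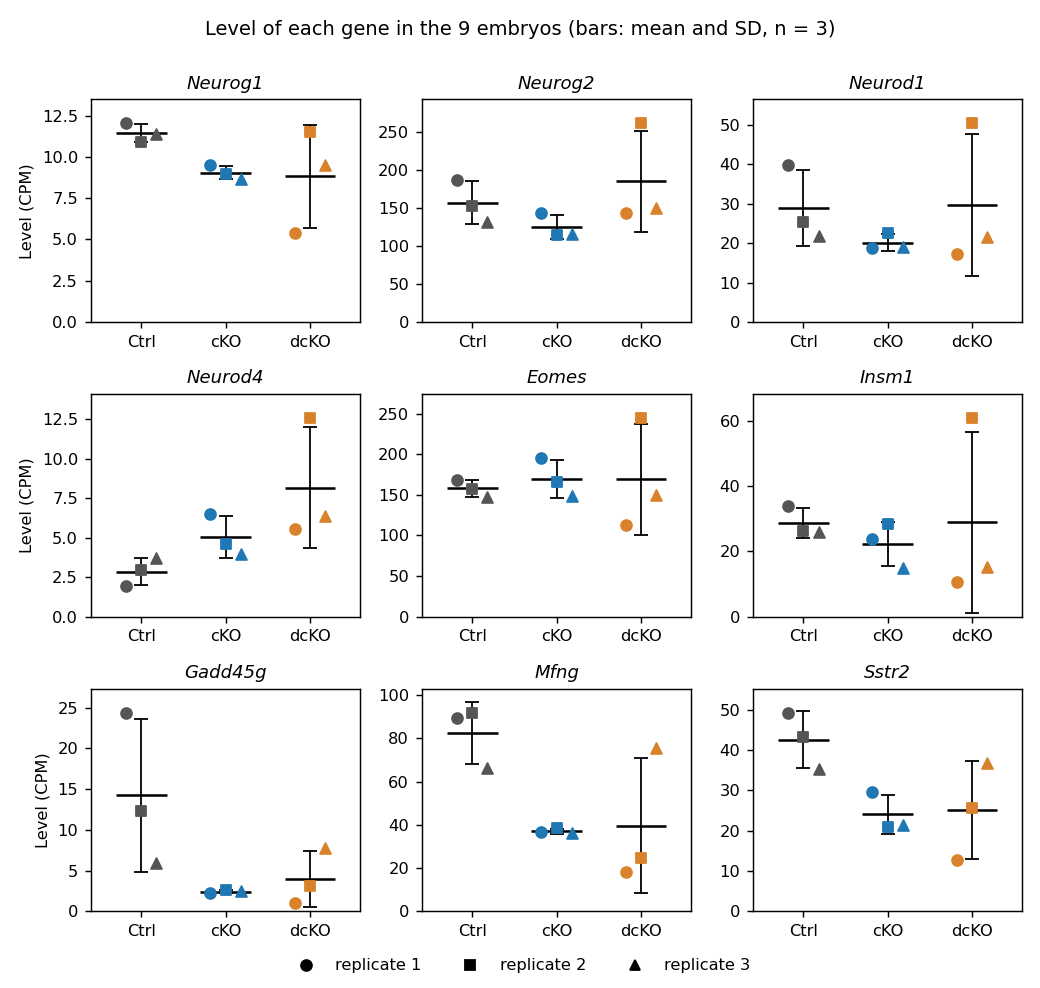
Level of each of the 9 genes in CPM (vertical axis from 0) in the 3 genotypes (horizontal axis), with 1 point per embryo, a line at the mean and bars for the SD (n = 3). The cKO embryos lay below every Ctrl embryo for Neurog1, Gadd45g, Mfng and Sstr2 and above every Ctrl embryo for Neurod4, and dcKO replicate 2 was the highest dcKO embryo for Neurog1, Neurog2, Neurod1, Neurod4, Eomes and Insm1.

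The proneural genes Neurog2 and Neurog1 were called in neither mutant by edgeR or DESeq2. Neurog2 (chromosome 3, 127633135 to 127635631 on GRCm38, plus strand, 2 exons) had 188, 152 and 131 CPM in Ctrl, 144, 115 and 116.4 CPM in cKO and 143, 262 and 151 CPM in dcKO replicates 1 to 3. The cKO embryos overlapped Ctrl at the lower end, and dcKO replicate 2 stood above all other embryos. In edgeR the log2 fold change of Neurog2 was -0.33 ± 0.25 (SE, adjusted p = 0.425) in cKO and 0.24 ± 0.25 (adjusted p = 0.543) in dcKO, and the dcKO value was -0.10 without replicate 2 (adjusted p = 0.739). Without Ctrl replicate 1, the highest Ctrl embryo, the cKO value was -0.18 (adjusted p = 0.767). Neurog1 (chromosome 13, 56250478 to 56252163, minus strand, 1 exon) was much scarcer, with 12.0, 10.9 and 11.4 CPM in Ctrl, 9.49, 8.96 and 8.67 CPM in cKO and 5.41, 11.5 and 9.52 CPM in dcKO. All cKO embryos were below all Ctrl embryos, whereas dcKO replicate 2 lay within the Ctrl range. The difference was small against the error of the fit, with an edgeR log2 fold change of -0.34 ± 0.30 in cKO (adjusted p = 0.496) and -0.37 ± 0.30 in dcKO (adjusted p = 0.422), or -0.62 without dcKO replicate 2 (adjusted p = 0.148) and -0.12 without dcKO replicate 1 (adjusted p = 0.807). Under limma voom with sample quality weights Neurog1 in dcKO was at -0.91 with an adjusted p of 0.0142, within the fold threshold.

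Between dcKO and cKO, Neurog2 was the single member with an edgeR unadjusted p under 0.05, at a log2 fold change of 0.57 ± 0.25 and an adjusted p of 0.889. Over all tested genes 4.42% had such a p, and without dcKO replicate 2 the edgeR value for Neurog2 was 0.23 (adjusted p = 0.999).

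Of the later bHLH genes of the Neurod family, Neurod1 overlapped Ctrl in both mutants and Neurod4 in neither. Neurod1 (chromosome 2, 79452521 to 79456751, minus strand), which acts in intermediate progenitors and early neurons, had 39.8, 25.3 and 21.7 CPM in Ctrl, 18.8, 22.6 and 18.9 CPM in cKO and 17.2, 50.4 and 21.7 CPM in dcKO. Its groups overlapped, and the Ctrl embryos were themselves spread widely. For Neurod1 edgeR gave a log2 fold change of -0.53 ± 0.39 in cKO (adjusted p = 0.419), which was -0.22 without Ctrl replicate 1 (adjusted p = 0.817), and 0.04 ± 0.39 in dcKO (adjusted p = 0.952), or -0.58 without dcKO replicate 2 (adjusted p = 0.183).

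Neurod4 (chromosome 10, 130268152 to 130280240, minus strand), another neuronal differentiation factor of this family, was the 1 member for which each mutant embryo of both genotypes lay above each Ctrl embryo. It had 1.96, 2.93 and 3.68 CPM in Ctrl, 6.49, 4.61 and 3.96 CPM in cKO and 5.52, 12.6 and 6.37 CPM in dcKO, from 48 to 492 reads per embryo. The lowest cKO value and the highest Ctrl value were close. For Neurod4 edgeR gave a log2 fold change of 0.81 ± 0.41 in cKO (adjusted p = 0.233) and 1.51 ± 0.42 in dcKO (adjusted p = 0.061), past the fold threshold but short of the p threshold. DESeq2 gave 1.49 ± 0.43 in dcKO with an adjusted p of 0.00809, and still 1.02 with an adjusted p of 0.036 without dcKO replicate 2, where edgeR gave 1.06 (adjusted p = 0.0673).

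Eomes and Insm1, the genes tied most closely to intermediate progenitor identity, overlapped Ctrl in cKO. Eomes (chromosome 9, 118478212 to 118486132, plus strand, 6 exons) had 168, 158 and 148 CPM in Ctrl, 195, 166 and 149 CPM in cKO and 113, 245 and 150 CPM in dcKO. Its Ctrl and cKO embryos shared a range, and the dcKO embryos spread on both sides of it. For Eomes edgeR gave a log2 fold change of 0.11 ± 0.26 in cKO (adjusted p = 0.822) and 0.10 ± 0.26 in dcKO (adjusted p = 0.82), or -0.27 without dcKO replicate 2 (adjusted p = 0.303). Insm1 (chromosome 2, 146221921 to 146225020, plus strand, 1 exon) had 33.96, 26.4 and 25.8 CPM in Ctrl, 23.8, 28.3 and 14.9 CPM in cKO and 10.7, 61.0 and 15.3 CPM in dcKO. The dcKO embryos divided, with replicates 1 and 3 below every Ctrl embryo and replicate 2 above all embryos. With all 3 embryos the edgeR log2 fold change in dcKO was 0.01 ± 0.56 (adjusted p = 0.988). Without replicate 2 Insm1 passed both thresholds as lower in dcKO, at -1.15 with an adjusted p of 0.0359 in edgeR and -1.19 with an adjusted p of 0.00229 in DESeq2. The cKO value was -0.36 ± 0.56 (edgeR adjusted p = 0.706), and it was -0.15 without cKO replicate 3, -0.57 without cKO replicate 2 and -0.23 without Ctrl replicate 1.

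Gadd45g, Mfng and Sstr2 had the lowest levels relative to Ctrl in cKO, and in dcKO with all 3 embryos, whereas without dcKO replicate 2 Insm1 was below Mfng and Sstr2. Gadd45g (chromosome 13, 51846678 to 51848468, plus strand, 4 exons) had 24.4, 12.3 and 5.91 CPM in Ctrl, 2.19, 2.57 and 2.49 CPM in cKO and 0.999, 3.14 and 7.78 CPM in dcKO. The Ctrl embryos were spread widely, yet all cKO embryos lay below the lowest of them, while dcKO replicate 3 fell inside the Ctrl range. The edgeR log2 fold change was -2.56 ± 0.71 in cKO, the largest among the 9 genes, with an adjusted p of 0.0643, and -1.85 ± 0.69 in dcKO (adjusted p = 0.114). Gadd45g passed both thresholds in DESeq2, at -2.57 ± 0.65 in cKO (adjusted p = 0.00254) and -1.88 ± 0.65 in dcKO (adjusted p = 0.0288). Without dcKO replicate 2 the dcKO value was -1.71 in edgeR (adjusted p = 0.17) and -1.74 in DESeq2 (adjusted p = 0.0537), and without dcKO replicate 3 the edgeR value was -2.77 with an adjusted p of 0.00533. Ctrl replicate 1 had the highest Gadd45g level, and without it edgeR gave -1.92 in cKO (adjusted p = 0.243) and -1.21 in dcKO (adjusted p = 0.377).

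Mfng (chromosome 15, 78755882 to 78773475, minus strand, 8 exons) had 89.6, 91.9 and 66.2 CPM in Ctrl, 36.6, 38.3 and 36.2 CPM in cKO and 18.4, 24.9 and 75.6 CPM in dcKO. The cKO embryos were tightly grouped below Ctrl, and of the dcKO embryos replicate 3 alone was at a Ctrl level. In edgeR the log2 fold change was -1.16 ± 0.44 in cKO (adjusted p = 0.13) and -1.06 ± 0.44 in dcKO (adjusted p = 0.145), and DESeq2 gave adjusted p-values of 0.0524 and 0.0672. Leaving out dcKO replicate 3 moved the edgeR value to -1.93 with an adjusted p of 0.000289, and leaving out dcKO replicate 2 moved it to -0.82 (adjusted p = 0.252).

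Sstr2 (chromosome 11, 113619342 to 113626028, plus strand, 2 exons) had 49.3, 43.3 and 35.3 CPM in Ctrl, 29.7, 21.01 and 21.5 CPM in cKO and 12.7, 25.7 and 36.9 CPM in dcKO. Here too the cKO embryos were all below Ctrl and dcKO replicate 3 was within it. The edgeR log2 fold change was -0.83 ± 0.35 in cKO (adjusted p = 0.165) and -0.77 ± 0.35 in dcKO (adjusted p = 0.175), with -1.15 (adjusted p = 0.01) without dcKO replicate 3, -0.45 (adjusted p = 0.393) without dcKO replicate 1 and -0.79 (adjusted p = 0.202) without dcKO replicate 2. Sstr2 overlaps Slc39a11 on the opposite strand, which held 5195 reads over the 9 embryos against 7365 for Sstr2, and the strand setting of the counting is not given in the sources used here, so that reads of this pair may be shared. The overlaps of Neurod1 with Cerkl (114 reads) and of Eomes with Gm33460 (122 reads) involved few reads beside the 6834 and 42431 reads of these members.

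In bulk tissue, fewer cells of a type and less RNA per cell cannot be told apart for any of these genes. The sequence before the transcription start is shown for 3 members whose levels separated the cKO from the Ctrl embryos, Gadd45g and Sstr2 as lower and Neurod4 as higher, because E-boxes are the sites bound by proneural factors. The E-box was searched as CANNTG, which reads the same way on both strands, in the 250 bases upstream of RefSeq starts on GRCm38.p6, and capitals mark its matches. The windows are chr13:51846425-51846674 on the plus strand for Gadd45g, chr11:113619077-113619326 on the plus strand for Sstr2 and chr10:130280255-130280504 on the minus strand for Neurod4, all written 5′ to 3′.
Gadd45g: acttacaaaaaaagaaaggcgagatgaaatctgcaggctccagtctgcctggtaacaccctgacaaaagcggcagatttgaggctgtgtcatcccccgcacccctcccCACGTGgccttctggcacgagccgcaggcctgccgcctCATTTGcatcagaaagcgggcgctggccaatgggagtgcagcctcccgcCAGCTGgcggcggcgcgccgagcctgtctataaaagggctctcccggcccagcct
Sstr2: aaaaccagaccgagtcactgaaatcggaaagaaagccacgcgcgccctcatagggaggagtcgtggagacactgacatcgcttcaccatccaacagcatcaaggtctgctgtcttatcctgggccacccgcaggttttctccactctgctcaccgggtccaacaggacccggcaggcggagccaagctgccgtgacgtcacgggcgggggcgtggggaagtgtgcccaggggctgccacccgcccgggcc
Neurod4: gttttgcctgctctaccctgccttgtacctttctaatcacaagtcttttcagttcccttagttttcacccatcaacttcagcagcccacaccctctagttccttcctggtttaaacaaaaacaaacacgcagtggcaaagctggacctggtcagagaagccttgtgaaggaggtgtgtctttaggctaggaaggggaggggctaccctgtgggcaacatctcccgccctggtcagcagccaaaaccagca
Gadd45g held 3 matches, with CACGTG beginning 142 bases before the start, CATTTG beginning 104 bases before it and CAGCTG beginning 55 bases before it. Sstr2 and Neurod4 held 0 in these windows, and so did a second, overlapping Neurod4 window. Of the other members with a RefSeq window, Neurog1, Neurog2 and Eomes held 0 and Neurod1 held 1, CATATG. The form CATCTG, or CAGATG on the other strand, was also searched, and each member window held 0. Among 32817 windows of the same length from all genes, 66.2% held CANNTG and 14.5% held its form CATCTG. The forms CACGTG and CATATG were in 6.02% and 3.47% of these windows. Insm1 and Mfng had no window in the table.

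**Figure D2:**
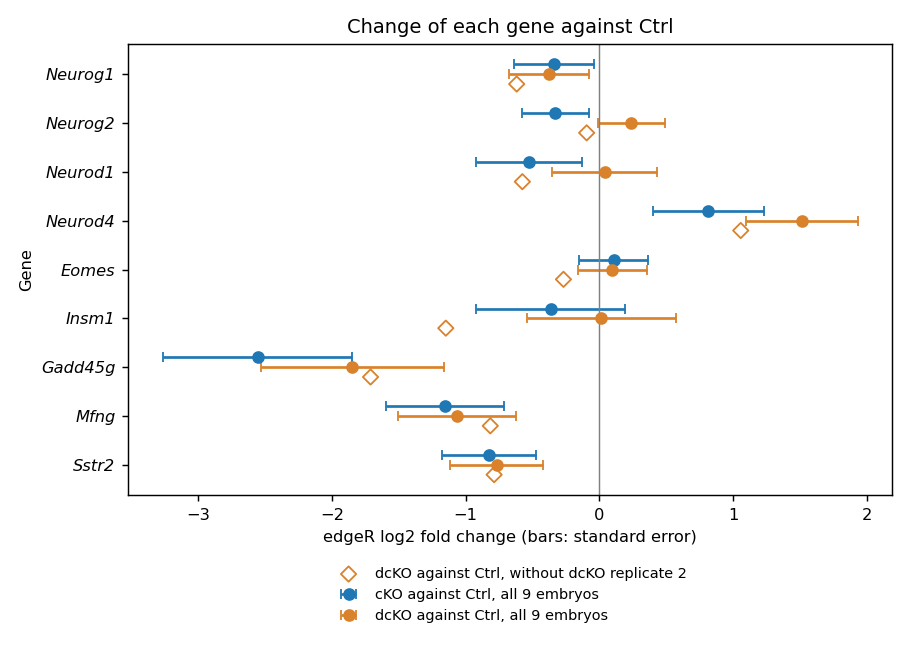
The edgeR log2 fold change of each gene against Ctrl (horizontal axis) with its standard error, for cKO and dcKO with all 9 embryos (filled circles) and for dcKO without replicate 2 (open diamonds). Neurog1, Gadd45g, Mfng and Sstr2 lay below 0 and Neurod4 above 0 in each of the 3 estimates. Insm1 moved from 0.01 to -1.15 when dcKO replicate 2 was left out.

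Counted over the 9 genes, edgeR called 0 in cKO, where it called 0.0146% of all tested genes, 0 in dcKO, where it called 0% of all tested genes, and 0 between dcKO and cKO, where it called 0.0146%. A call needed an adjusted p under 0.05 together with a change of more than 1 on the log2 scale in either direction. The same edgeR test called neither targeted gene, with Cnot3 at -2.78 in cKO (adjusted p = 0.0509) and -2.11 in dcKO (adjusted p = 0.0529). Trp53 in dcKO was at -2.27 (adjusted p = 0.0605). The lack of edgeR calls therefore does not show that the members were unchanged. At an edgeR unadjusted p under 0.05 there were 3 members in cKO, Gadd45g, Mfng and Sstr2, beside 27.0% of all genes, and 3 in dcKO, Neurod4, Gadd45g and Mfng, beside 29.2%. DESeq2 called 1 member in cKO, Gadd45g, against 8.83% of all genes with an adjusted p, 2 in dcKO, Neurod4 and Gadd45g, against 8.47%, and 0 between dcKO and cKO, against 0.381%. When the edgeR model held the Ctrl and cKO embryos alone it called Gadd45g (adjusted p = 0.00108) and Mfng (adjusted p = 0.000113), 2 of 9 members beside 12.9% of all genes. With 9 genes these counts lay near the shares of all genes, and nothing particular to the members is read from them.

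In 4 of the 9 genes every cKO embryo was below every Ctrl embryo, and in 1 every cKO embryo was above. Of all tested genes 28.0% lay wholly below and 29.2% wholly above. In dcKO the corresponding counts were 0 members below, with 11.2% of all genes, and 1 member above, with 15.6%. Between dcKO and cKO 0 members separated in either direction, with 3.63% of all genes below and 2.62% above. The median log2 fold change of the 9 genes was -0.36 in cKO, against 0.01 for all tested genes, and 0.01 in dcKO, against 0.11. Without dcKO replicate 2 the dcKO median was -0.62, against 0.03 for all tested genes, and with another dcKO embryo left out it was 0.32 (replicate 1) or 0.18 (replicate 3). The cKO median was -0.23 without Ctrl replicate 1 and -0.57 without cKO replicate 2. Both mutants were set against the same 3 Ctrl embryos.

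**Figure D3:**
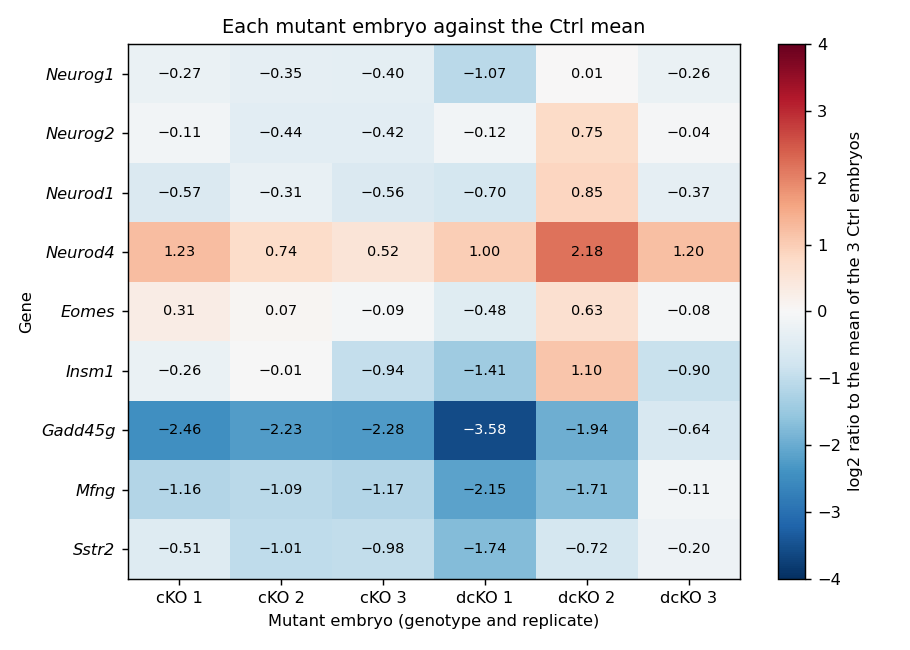
Log2 ratio of each of the 6 mutant embryos (columns) to the mean of the 3 Ctrl embryos for each gene (rows), with color from blue (lower) to red (higher) and the value in each cell. The 3 cKO columns had the same sign for each gene but Eomes. Among the dcKO columns, replicate 1 was the lowest for every gene. dcKO replicate 2 was above 0 for Neurog1 (0.01), Neurog2, Neurod1, Neurod4, Eomes and Insm1, and dcKO replicate 3 lay between -0.90 and 1.20.

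The dcKO embryos therefore did not form 1 pattern. Relative to the Ctrl mean on the log2 scale, dcKO replicate 1 was at -3.58 for Gadd45g, -2.15 for Mfng, -1.74 for Sstr2, -1.41 for Insm1 and -1.07 for Neurog1. Replicate 2 was also low for Gadd45g (-1.94) and Mfng (-1.71), but high for Neurod4 (2.18), Insm1 (1.10), Neurod1 (0.85), Neurog2 (0.75) and Eomes (0.63). Replicate 3 was near Ctrl for Mfng (-0.11), Sstr2 (-0.20) and Eomes (-0.08) and differed most for Neurod4 (1.20) and Insm1 (-0.90).

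Across the 9 embryos the likeness of the genes is given as Pearson r of log2 CPM and as a description only, since the embryos differ in genotype and library. Gadd45g, Mfng and Sstr2 varied together, with r from 0.91 to 0.93 over their 3 pairs. Eomes and Insm1 (r = 0.87), Neurog2 and Neurod1 (r = 0.87) and Neurod1 and Insm1 (r = 0.86) were also alike. Between these 4 genes and Gadd45g, Mfng and Sstr2, r ranged from -0.06 for Neurog2 and Mfng to 0.49 for Neurod1 and Gadd45g. Neurod4 ran opposite to Mfng (r = -0.66) and Gadd45g (r = -0.61), and Neurog1 was alike to Sstr2 (r = 0.86) and to Insm1 (r = 0.78).

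**Figure D4:**
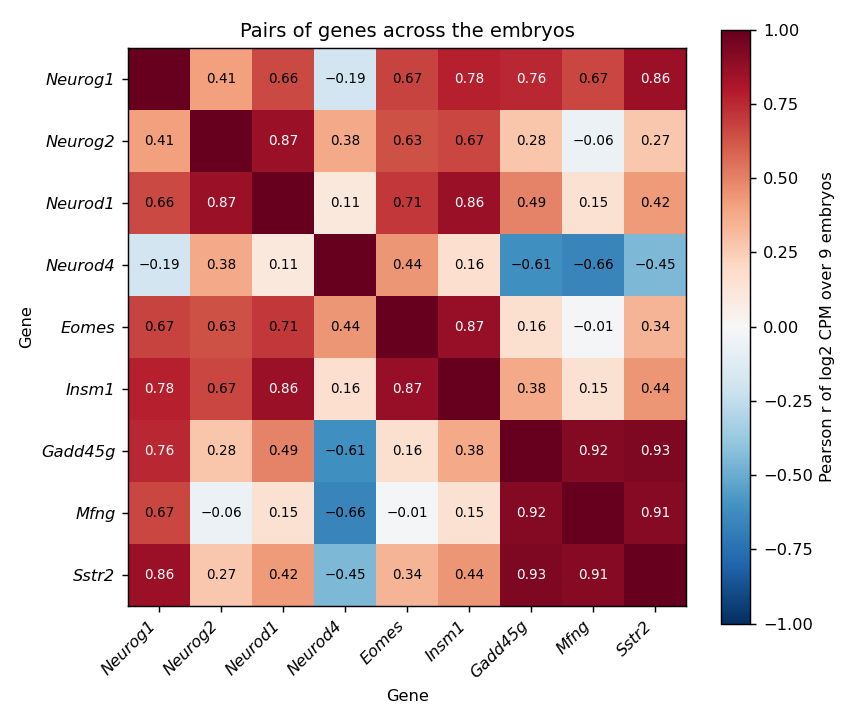
Pearson r of log2 CPM over the 9 embryos for each pair of the 9 genes (both axes), with the value in each cell and color from blue (-1) to red (1). Gadd45g, Mfng and Sstr2 form a block with r of 0.91 to 0.93, and Neurod4 has negative r with all 3 of them.

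GC content moved with these values. Over 13561 tested genes with a GC value, the edgeR log2 fold change had a Pearson r with GC content of the longest transcript of -0.37 in cKO and -0.57 in dcKO, and over the 9 members r was -0.57 and -0.69. The transcripts of Insm1 (62.0% GC), Gadd45g (59.9%), Mfng (58.1%) and Neurog1 (58.0%) are GC-rich beside a median of 49.5% for tested protein-coding genes, and those of Neurod4 (38.0%) and Neurod1 (43.6%) are GC-poor. In single embryos, r between GC content and the log2 ratio to the Ctrl mean was -0.60 in dcKO replicate 1, -0.76 in dcKO replicate 2 and 0.14 in dcKO replicate 3, between -0.41 and -0.24 in the cKO embryos and between -0.47 and 0.30 in the Ctrl embryos. Gadd45g at -2.56 in cKO was below the median of -0.77 of the 678 genes in its bin of like GC content, and Mfng at -1.16 was below the -0.52 of its bin. Sstr2 at -0.83 and Neurod1 at -0.53 were below bin medians of -0.10 and 0.22, Neurod4 at 0.81 was above 0.20, and Neurog2 at -0.33 was at its bin median of -0.30. Insm1, Neurog1 and Eomes, at -0.36, -0.34 and 0.11, were above bin medians of -0.77, -0.52 and -0.14. A fit with a correction for GC content gave Gadd45g -1.79 and Mfng -0.64 in cKO, with edgeR adjusted p-values of 0.0382 and 0.0378, and Insm1 0.46 in cKO and 1.64 in dcKO, both with the sign of higher. The part of GC content in the levels of these genes was not tested further.

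**Figure D5:**
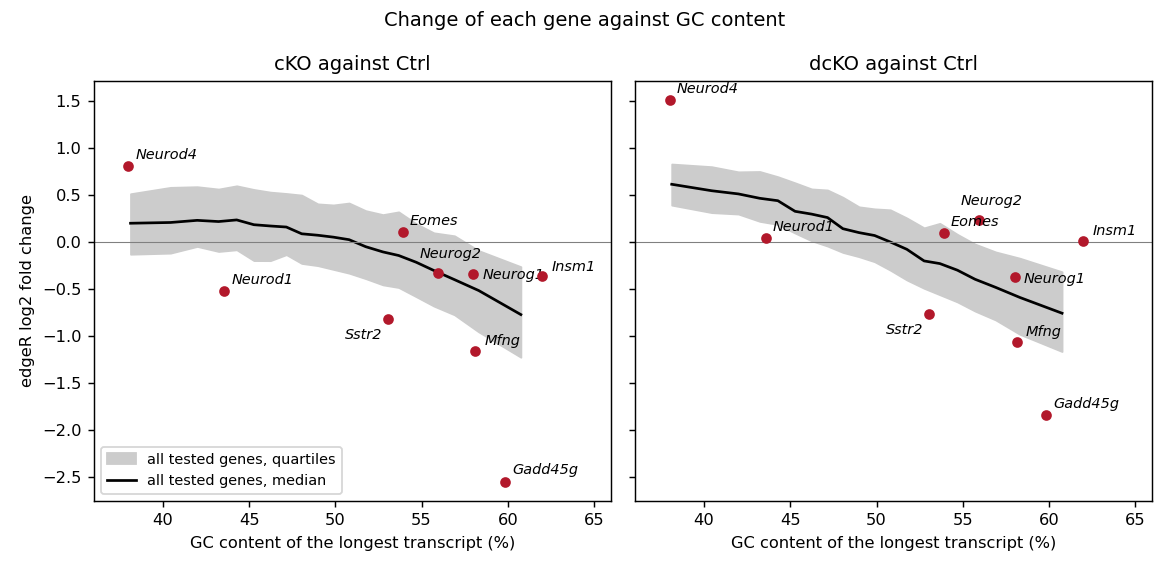
The edgeR log2 fold change (vertical axis) against GC content of the longest transcript in percent (horizontal axis) for cKO (left) and dcKO (right), with the 9 genes as red points and the median (line) and quartiles (gray band) of all tested genes in 20 bins. The band falls with GC content in both panels. Gadd45g, Mfng, Sstr2 and Neurod1 lie below it in both, and Neurod4 lies above it in both.

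The ID of each embryo in the labels holds a number whose meaning is not stated, and 3 of these numbers are shared by a Ctrl and a mutant embryo. For the 2 shared with a cKO embryo, Gadd45g differed from the Ctrl embryo of the same number by -3.24 and -2.30 on the log2 scale, Mfng by -1.22 and -1.34, Sstr2 by -1.23 and -1.01 and Neurod4 by 1.23 and 0.43. For the 1 shared with a dcKO embryo, which is dcKO replicate 3, the differences were 0.40 for Gadd45g, 0.19 for Mfng, 0.06 for Sstr2, 0.79 for Neurod4 and -0.76 for Insm1. The sign in cKO was thus the same for both numbers in these 4 genes, and the lower Gadd45g, Mfng and Sstr2 of dcKO rested on embryos whose number no Ctrl embryo shares. With this number as a block, edgeR called Gadd45g at -2.79 (adjusted p = 1.32e-06), Mfng at -1.28 (adjusted p = 8.86e-08) and Sstr2 at -1.12 (adjusted p = 6.74e-06) as lower in cKO. In the same fit Neurog2 at -0.55, Neurod1 at -0.62 and Insm1 at -0.54 had edgeR adjusted p-values of 0.000603, 0.00624 and 0.0186 in cKO, below the fold threshold. The block takes 8 coefficients for 9 embryos and leaves 1 residual degree of freedom, its cKO values rest on 2 pairs, and it called 14.5% of all tested genes. The deviations from the group means had an r of -0.54, -0.01 and 0.19 in the 3 pairs that share a number, so the numbers were not taken to pair the embryos.

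Relatives of the members in the same gene families were measured to see whether levels moved family-wide. Of 12 relatives 6 were tested, with 0 called by edgeR or DESeq2 in either mutant and a median log2 fold change of -0.37 in cKO and -0.69 in dcKO. Neurod6, a marker of young pyramidal neurons, had 126, 118 and 97.3 CPM in Ctrl and 255, 234 and 113 CPM in cKO, an edgeR log2 fold change of 0.82 ± 0.30 with an adjusted p of 0.118. The other fringe genes lay in the direction of Mfng, with Lfng at -0.65 ± 0.47 (edgeR adjusted p = 0.404) and Rfng at -0.66 ± 0.43 (adjusted p = 0.343) in cKO. In both, dcKO replicate 3 was at or above the Ctrl levels, with 50.0 CPM for Lfng and 35.4 CPM for Rfng.

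Of 16 further genes of neurogenic commitment, edgeR called 0 in either mutant, and DESeq2 called 2 lower and 0 higher in each. Of all genes with an adjusted p, DESeq2 called 3.88% lower and 4.95% higher in cKO and 3.80% lower and 4.67% higher in dcKO. Igfbpl1, a gene of newborn neurons, had 253, 264 and 208 CPM in Ctrl, 75.05, 76.5 and 101 CPM in cKO and 68.8, 186 and 101 CPM in dcKO. Every mutant embryo was below every Ctrl embryo, at an edgeR log2 fold change of -1.52 ± 0.32 in cKO (adjusted p = 0.0509), which DESeq2 called (adjusted p = 0.000665). Dll1, a Notch ligand switched on by proneural factors, was at -0.91 ± 0.23 in cKO (edgeR adjusted p = 0.0575) and -0.70 ± 0.23 in dcKO (adjusted p = 0.0883), again with no overlap. Igsf8 was at -1.82 ± 0.60 in cKO (edgeR adjusted p = 0.0928), where DESeq2 called it (adjusted p = 0.0133), and its dcKO replicate 3 had 115.5 CPM, inside the Ctrl range. The median log2 fold change of the 16 genes was -0.31 in cKO and -0.30 in dcKO.

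Among 13 genes that control bHLH factors, DESeq2 called 1 higher and 3 lower in cKO, beside 4.95% and 3.88% of all genes, and 0 higher and 1 lower in dcKO, beside 4.67% and 3.80%, while edgeR called 0 in either. Id1, an inhibitor that binds E proteins, had 4.61, 4.51 and 3.57 CPM in Ctrl and 7.19, 18.5 and 12.1 CPM in cKO, an edgeR log2 fold change of 1.57 ± 0.39 with an adjusted p of 0.055 and a DESeq2 adjusted p of 0.00248. Hes5, the Notch-induced repressor of proneural genes, had 37.8, 31.0 and 22.03 CPM in Ctrl and 6.75, 7.85 and 10.9 CPM in cKO, at -1.83 ± 0.53 in edgeR (adjusted p = 0.0694) and with a DESeq2 adjusted p of 0.00543. Tcf4, an E protein partner of proneural factors, was at -0.91 ± 0.28 in cKO (edgeR adjusted p = 0.0788) and -0.22 in dcKO, where it overlapped Ctrl. In dcKO Id1 was at 1.02 and Hes5 at -0.99. The rest of the list was named after its values were seen. In cKO the E proteins Tcf3 and Tcf12 were at -1.66 and 0.09, and Id2, Id3 and Id4 at 0.37, 0.01 and -0.18. Notch1, Hes1, Hey1, Rbpj and Rest were at -1.71, -0.58, -0.09, 0.08 and -0.71. The list median was -0.18 in cKO and 0.03 in dcKO.

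Of 14 radial glial genes DESeq2 called 2 lower in cKO and 0 in dcKO, and of 13 neuronal genes it called 1 and 2 lower, beside 3.88% and 3.80% of all genes, while edgeR called 0 of either list. Lhx2 was at -1.19 ± 0.27, Nes at -0.68 ± 0.23 and Sox9 at -0.65 ± 0.23 in cKO, with edgeR adjusted p-values of 0.0514, 0.098 and 0.11. Every cKO embryo lay below Ctrl for 8 of the 14 radial glial genes and above it for 2, Prom1 at 0.54 and Vim at 0.45, and Ptprz1 at 0.45 and Fabp7 at 0.28 overlapped it, these 4 being named after their values were seen. Of all tested genes 28.0% lay wholly below and 29.2% wholly above in cKO. Fezf2 was at -0.93 ± 0.29, Elavl3 at -1.05 ± 0.37 and Tubb3 at -0.96 ± 0.50, with edgeR adjusted p-values of 0.0818, 0.108 and 0.245. Beside the same shares of all genes, 6 of the 13 neuronal genes lay wholly below Ctrl in cKO and 0 above, and Myt1l at 0.59, Tbr1 at 0.27, Sox5 at 0.17 and Stmn2 at 0.03, likewise named after their values were seen, overlapped it. The median log2 fold change in cKO was -0.20 for radial glial and -0.21 for neuronal genes beside -0.36 for the 9 members.

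Because several members are also expressed outside the dorsal cortex, markers of neighboring tissues were read in the same embryos, and those given singly were chosen after their values were seen. The 10 subpallial markers summed to 1.24 to 1.51 CPM in Ctrl, 2.53 to 4.54 CPM in cKO and 1.78 to 9.12 CPM in dcKO, with 3, 4 and 3 of them without a read. In cKO the largest share was Lhx6, with 2.52, 4.46 and 1.81 CPM beside 0.938, 0.843 and 1.30 CPM in Ctrl. The highest sum was that of dcKO replicate 2, where Gsx2 was at 2.45 CPM, Dlx2 at 2.25 CPM and Gad2 at 2.04 CPM. The 9 markers of cortical hem, choroid plexus and Cajal-Retzius cells summed to 116.6 to 153 CPM in Ctrl, 209 to 307 CPM in cKO and 126 to 321 CPM in dcKO, with Ttr without a read in Ctrl. Reln, a Cajal-Retzius gene, made up most of the Ctrl sum and had means of 88.9 CPM in Ctrl, 90.1 CPM in cKO and 52.4 CPM in dcKO. Of the list's other Cajal-Retzius markers, Trp73 had means of 21.8, 29.2 and 17.6 CPM and Lhx1 of 4.91, 6.97 and 6.54 CPM, both overlapping Ctrl, and Lhx5 had 0.893, 2.27 and 1.93 CPM with every cKO embryo above Ctrl. The hem and choroid plexus genes were further apart, with Rspo2 at means of 6.81, 65.2 and 63.1 CPM, Wnt2b at 3.22, 20.6 and 16.4 CPM and Lmx1a at 5.26, 21.6 and 17.2 CPM in Ctrl, cKO and dcKO. In all 3 every mutant embryo lay above every Ctrl embryo, and DESeq2 called them higher in both mutants, with edgeR log2 fold changes in cKO of 3.27, 2.69 and 2.04 (adjusted p = 0.0677, 0.0802 and 0.0562). The 6 diencephalic markers summed to 49.7 to 59.7 CPM in Ctrl, 53.3 to 75.9 CPM in cKO and 53.5 to 85.3 CPM in dcKO, with Sox14 at 0 throughout and Otx2, also a choroid plexus gene, at means of 0.66, 8.52 and 8.70 CPM. Lhx9 had means of 38.5, 47.4 and 55.5 CPM, with every mutant embryo above Ctrl. Tcf7l2 went the other way, at 13.9, 9.50 and 9.33 CPM, with every mutant embryo below Ctrl. Barhl2, at 1.15, 0.545 and 0.730 CPM, and Gbx2, at 0.090, 0.037 and 0 CPM, overlapped Ctrl. The 5 sensory ganglion markers, relevant to Neurog1 and Neurod4, summed to 23.4 to 30.0 CPM in Ctrl, 22.5 to 29.8 CPM in cKO and 9.14 to 41.3 CPM in dcKO, nearly all of it Eya2. The 10 markers of blood, vessel, microglia and connective tissue summed to 6085 to 8653 CPM in Ctrl, 7489 to 11241 CPM in cKO and 3839 to 5398 CPM in dcKO. Most of these sums was globin, with Hbb-y at 4002 ± 644 CPM in Ctrl and 6583 ± 1665 CPM in cKO (SD, n = 3), while the other globins overlapped Ctrl in cKO, with means of 1155 and 1126 CPM for Hba-x and 1813 and 1521 CPM for Hba-a1. Of the connective tissue genes, Lum overlapped Ctrl with means of 53.8 CPM in Ctrl and 61.4 CPM in cKO, and each cKO embryo was below Ctrl for both collagen genes, at 123 ± 25.8 CPM in Ctrl and 50.6 ± 26.5 CPM in cKO for Col1a1 and 160.4 ± 9.95 and 102.6 ± 37.2 CPM for Col1a2. In dcKO, DESeq2 called 4 of these 10 markers lower and 0 higher, beside 3.80% and 4.67% of all genes, and their median log2 fold change was -1.05. Wholly below Ctrl lay 5 of them, beside 11.2% of all genes, and wholly above 0, beside 15.6%. Means in Ctrl, cKO and dcKO were 39.9, 41.1 and 22.9 CPM for Pecam1 and 13.2, 9.71 and 5.22 CPM for Cldn5, both of vessels. For microglia, C1qa had 4.63, 6.91 and 2.37 CPM and C1qb 7.92, 11.2 and 3.87 CPM. The part of these tissues in the levels of the members was not tested.

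The genes most like the members' mean over the 9 embryos, by Pearson r with the mean of their scaled log2 CPM, were Map4k4 (r = 0.96), Ptn (r = 0.95), G630016G05Rik (r = 0.95), Fzd8 (r = 0.95) and Pou3f3 (r = 0.94). They were picked as the highest r among all tested genes over few embryos, so high values come with the selection. The mean also pools members that differ, such as Neurod4 and Mfng (r = -0.66), and is not the pattern of each member. The members' mean was highest in dcKO replicate 2 (0.99) and Ctrl replicate 1 (0.73) and lowest in dcKO replicate 1 (-1.27), in units of SD. Ptn, for example, had 210, 168 and 168 CPM in Ctrl, 122, 101 and 73.8 CPM in cKO and 53.1, 226 and 101 CPM in dcKO.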

How the data were processed

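Counts were used as deposited by the authors, who used Cutadapt, STAR on mm39 and featureCounts on stranded poly(A) libraries, with no normalization or filter; versions and the strand setting are not given in the sources used here. Embryos were grouped by their labels. Counts were tested in R 4.3.3 with edgeR 4.0.16 (TMM factors, quasi-likelihood test, one model of all 9 embryos, no covariates) on the 13680 genes above 10 reads in each of the embryos, and p-values were adjusted by Benjamini-Hochberg over these genes. A call needed an adjusted p under 0.05 and a change of more than 1 on the log2 scale. DESeq2 1.42.0 was run on the same genes. The standard error is the log2 fold change divided by the square root of F. CPM used TMM factors, and log2 CPM a prior count of 0.5. Coordinates, exons and GC content came from GENCODE M21 on GRCm38, where 52081 identifiers matched, and promoters from RefSeq for 7 of the 9 members. Alternatives were RLE and upper-quartile factors, limma 3.58.1 voom with sample quality weights, filterByExpr, no filter, a model of the 6 embryos compared, leaving out each embryo, blocks for the replicate number and for the number in the embryo ID, a GC correction (loess span 0.3) and no limit on fold change. DESeq2 without dcKO replicate 2 was added after seeing the data. The functions were tested on simulated data. Named genes are the members, the targeted genes and the 3 genes of smallest edgeR p in cKO of the 5 neural lists. Markers given beside a member and the 5 genes most like the members' mean are also named. Other radial glial, neuronal and tissue genes and genes that control bHLH factors were named after their values were seen. Some marker genes are not reported here. The members and lists were chosen with earlier results of these data known. Summaries used Python 3.11.15, NumPy 2.4.6 and pandas 2.3.3. At these depths members had from 36 to 10246 reads per embryo.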

Additional observations from a re-analysis of the deposited data

How the results depend on the processing

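The 9 members and 3 comparisons gave 567 alternative log2 fold changes, of which 461 kept their direction and their side of the thresholds. A further 30 passed the thresholds with the same sign, and 76 changed sign, 8 in cKO, 39 in dcKO and 29 between dcKO and cKO. Those that changed sign include values that also passed the thresholds, such as Insm1 in dcKO without dcKO replicate 2. The cause was not tested unless the setting itself shows it. Over the alternatives the adjusted p ranged from 1.32e-06 to 0.243 for Gadd45g, 8.86e-08 to 0.316 for Mfng and 6.74e-06 to 0.395 for Sstr2 in cKO, and from 0.00504 to 0.552 for Gadd45g, 4.78e-05 to 0.463 for Mfng, 0.000671 to 0.863 for Sstr2, 0.00809 to 0.249 for Neurod4 and 0.00229 to 0.996 for Insm1 in dcKO.

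In cKO, edgeR's 0 calls among members became 1 with DESeq2, the GC correction or no filter, 2 with voom, with the 6 embryos alone and in DESeq2 without dcKO replicate 2, and 3 (Gadd45g, Mfng and Sstr2) with a block on the number in the embryo ID (ID block), and ranged from 0 to 2 with 1 embryo left out. The 2 calls over all genes became 1206 with DESeq2, 1525 with DESeq2 without dcKO replicate 2, 671 with the GC correction, 1986 with the ID block, 1868 with voom, 813 without a filter, 1758 with the 6 embryos and 424 with upper-quartile factors, and ranged from 0 to 1473 with 1 embryo left out, the highest without dcKO replicate 3.
In dcKO, the 0 calls among members became 2 with DESeq2, with or without dcKO replicate 2, and 5 with voom, and ranged from 0 to 4 with 1 embryo left out. The 0 calls over all genes became 1157 with DESeq2, 1640 with DESeq2 without dcKO replicate 2, 201 with the GC correction, 1633 with the ID block, 3668 with voom and 692 without a filter, and ranged from 0 to 3245 with 1 embryo left out.
Between dcKO and cKO, the 0 calls among members became 3 with the ID block. The 2 over all genes became 52 with DESeq2, 54 with DESeq2 without dcKO replicate 2, 9 with the GC correction, 1583 with the ID block, 27 with voom, 8 without a filter and 0 with the 6 embryos, and ranged from 0 to 1236 with 1 embryo left out.

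The replicate numbers were not taken to pair the embryos. The check below cannot exclude a pairing, because single embryos also differed in how their levels followed GC content. Deviations from the group means had a mean r of -0.169 over the 9 same-numbered pairs, with 1 over 0.1, and 0.0836 over the other 18. Blocking on the replicate number, edgeR called 0 members in each comparison and 0 genes in cKO and between dcKO and cKO, and with the block and the GC correction 5 and 6 genes. The block alone turned Neurod1 (-0.058) and Insm1 (-0.33) in dcKO and Mfng (-0.068) between dcKO and cKO.

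Sign changes in cKO were Neurog1 0.15, Neurog2 0.0054 and Insm1 0.46 with the GC correction, 0.14, 0.0144 and 0.33 with GC correction and replicate block, and Eomes -0.052 with the ID block. In dcKO they were Insm1 -0.0073 with DESeq2, -0.0064 with RLE factors and -0.019 with upper-quartile factors; Neurog1 0.51 and Neurod1 -0.41 with the GC correction, and 0.41 and -0.46 with the block added; Neurod1 -0.0033, Insm1 -0.76, Gadd45g 0.40, Mfng 0.19 and Sstr2 0.062 with the ID block; Neurod1 -0.057 and Insm1 -0.094 with filterByExpr; Neurod1 -0.072, Eomes -0.0093 and Insm1 -0.11 without a filter; Neurod1 -0.018 and Insm1 -0.055 with the 6 embryos; Neurog2 -0.039, Neurod1 -0.51, Eomes -0.36 and Insm1 -1.12 with voom; and Neurog2 -0.13, Neurod1 -0.61, Eomes -0.31 and Insm1 -1.19 in DESeq2 without dcKO replicate 2. Between dcKO and cKO they were Neurog1 0.36 and Eomes 0.23 with the GC correction, and 0.26 and 0.13 with the block added; Neurog1 0.12, Neurod4 -0.039, Eomes 0.069 and Insm1 -0.22 with the ID block; Neurod1 -0.021, Insm1 -0.75, Gadd45g -0.88, Mfng -0.84 and Sstr2 -0.82 with voom; Sstr2 -0.034 with upper-quartile factors; and Neurod1 -0.081 and Insm1 -0.81 in DESeq2 without dcKO replicate 2.
With 1 embryo left out, values crossing 0 ranged in cKO from -0.0057 to 0.18 for Eomes. In dcKO they ranged from -0.10 to 0.39 for Neurog2, -0.58 to 0.34 for Neurod1, -0.27 to 0.32 for Eomes and -1.15 to 0.41 for Insm1. Between dcKO and cKO they ranged from -0.28 to 0.22 for Neurog1, -0.051 to 0.84 for Neurod1, -0.37 to 0.21 for Eomes, -0.78 to 0.78 for Insm1, -0.22 to 1.17 for Gadd45g, -0.77 to 0.44 for Mfng and -0.33 to 0.38 for Sstr2.

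The ID block rests the dcKO value on 1 pair of embryos. Neurod4 and Gadd45g had the fewest reads of the members, down to 48 and 36 in an embryo, which limits their precision.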
